A study of Mus musculus with 32 samples.

Results

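ISG15 is a small ubiquitin-like protein that cells attach to other proteins, a step called ISGylation. Uba7 (also known as Ube1l) encodes the enzyme that activates ISG15, Ube2l6 encodes its main conjugating enzyme, and Usp18 encodes the protease that takes ISG15 off again. Usp18 protein also binds the type I interferon receptor and dampens its signalling. All of these genes are known interferon-stimulated genes of macrophages: interferon bound to its receptor, built of IFNAR1 and IFNAR2, activates ISGF3, a complex of transcription factors. Toll-like receptors that sense bacterial lipopolysaccharide (LPS) make macrophages release IFNβ, and the interferon regulatory factors they activate can also act on some of these genes directly.

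The 4 genes were read by 6 probes, taken as every probe whose gene name in the array files was Isg15, Usp18, Uba7, Ube1l or Ube2l6. Isg15 and Ube2l6 had 2 probes each, Usp18 and Uba7 had 1 each, and 0 probes carried the older name Ube1l. The genes were 4 of 16035 with a retained probe. Their probes were 6 of 55681 non-control probes, and 6 of 6 were among the 21462 retained for testing, which were well above background on at least 50% of the arrays. Usp18 was well above background on 26 of 32 arrays, and the 16 WT arrays were enough to retain it. In mm9, the build of the array design, the Isg15 probes lay at chr4:155573649-155573708 (A_55_P2103698, the brighter) and chr4:155573533-155573552 (A_66_P128537, for which the file places 20 of its 60 bases). The Usp18 probe lay at chr6:121220874-121220933 and the Uba7 probe at chr9:107886328-107886387. The Ube2l6 probes lay at chr2:84649861-84649920 (A_55_P2031125, the brighter) and chr2:84650257-84650316 (A_55_P2141943). Exons and introns at these positions were not analysed here.

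The samples were bone marrow-derived macrophages (BMDMs), grown with M-CSF from C57BL/6 wild-type (WT) mice (C57BL6/J in the study's methods) and from mice lacking Ifnar1, the receptor subunit through which all type I interferons signal. Cells of each genotype were left untreated or were given zVAD, LPS or IFNβ for 6 h, and LPS and IFNβ were each also given with zVAD (LPS+zVAD, IFNβ+zVAD) and with zVAD and Nec-1 (IFNβ+zVAD+Nec-1, LPS+zVAD+Nec-1), giving 16 groups of 2 arrays. The labels give 100 ng/mL LPS and 1000 U/mL IFNβ, while the methods name other doses, so the amounts used are not settled. zVAD inhibits caspases broadly and Nec-1 (necrostatin-1) inhibits the kinase RipK1, so that LPS or IFNβ with zVAD is used to drive necroptosis and Nec-1 to block it. The ages of the mice and the part of Ifnar1 that is deleted are not given in the sources used here. Nothing says that the 2 arrays of a group came from separate mice or cultures, so p-values measure only the spread between these samples, and 2 arrays per group limit the precision of every value. The arrays lay on 4 slides of 8, each holding 1 genotype and 1 replicate number. Treatments were therefore compared within slides, but at any 1 treatment slide and genotype coincide and cannot be told apart.

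Between 54.9% and 78.0% of non-control probes were well above background on WT arrays and between 44.5% and 61.6% on Ifnar1-/- arrays, and 0 spots were saturated. The Ifnar1-/- LPS+zVAD+Nec-1 pair stood apart: its arrays correlated at r = 0.947 across probes and differed by over 1 log2 unit at 4964 probes, against r of 0.973 to 0.991 and 761 to 2972 probes in the other 15 groups. In the text below, "without the wide pair" means a fit that leaves out both of these arrays. The 3 retained Ifnar1 probes were lower in untreated Ifnar1-/- than in untreated WT cells (log2 differences -1.65, -2.33 and -1.98), yet their signals did not vanish, and A_55_P2036337, one of the 3, did not differ by the test after LPS+zVAD, for example (log2 difference -0.12, adjusted p = 0.906). A probe outside the deleted part checks nothing, and the position of these probes relative to it is not known here. Of 7 macrophage marker genes, 6 were on the array and well above background on all 32 arrays, but so were some markers of other cells. These were 1 of 3 T cell markers (Cd3e, while Cd3d was above background on 4 and Cd3g on 3 arrays), 1 of 3 of B cells, 0 of 2 of NK cells, 2 of 4 of neutrophils, 1 of 4 of dendritic cells, 3 of 3 of fibroblasts and 2 of 2 of endothelium. What part other cells had in the values below was not tested. In RNA from whole cultures, fewer cells of a type and less RNA per cell cannot be told apart.

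Promoters are shown here for the members found in the RefSeq table (assembly GRCm38.p6), since these genes share an interferon response but not, as described below, a response to LPS without the receptor. Isg15, Uba7 and Ube2l6 were found, 3 of 4 genes. Each line runs 5′ to 3′ over the 250 bases before the gene's start, and capitals mark matches to GAAANNGAAA, the core of the interferon-stimulated response element bound by ISGF3 and interferon regulatory factors, or to its shorter part AANNGAAA, on either strand.
Isg15, chr4:156200819-156201068, minus strand: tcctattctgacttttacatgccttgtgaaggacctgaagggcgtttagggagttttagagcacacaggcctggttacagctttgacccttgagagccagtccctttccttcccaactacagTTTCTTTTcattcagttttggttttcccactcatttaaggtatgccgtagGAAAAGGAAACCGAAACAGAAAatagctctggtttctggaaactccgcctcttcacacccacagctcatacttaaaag
Uba7, chr9:107975317-107975566, plus strand: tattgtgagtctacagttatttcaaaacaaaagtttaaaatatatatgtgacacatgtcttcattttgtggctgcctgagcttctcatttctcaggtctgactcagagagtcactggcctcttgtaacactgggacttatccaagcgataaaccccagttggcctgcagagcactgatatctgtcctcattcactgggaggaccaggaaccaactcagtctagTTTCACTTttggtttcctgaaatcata
Ube2l6, chr2:84798578-84798827, plus strand: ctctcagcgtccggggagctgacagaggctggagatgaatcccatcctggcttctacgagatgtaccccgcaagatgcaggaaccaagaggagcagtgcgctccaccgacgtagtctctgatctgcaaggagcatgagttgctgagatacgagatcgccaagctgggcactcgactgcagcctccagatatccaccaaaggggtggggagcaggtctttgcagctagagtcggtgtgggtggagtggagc
Isg15 held 3 overlapping matches to GAAANNGAAA, at 78 to 69, 72 to 63 and 66 to 57 bases before the start, and neither of the other promoters held any. That motif occurred in 978 of 32851 promoters of the same length (2.98%). The shorter AANNGAAA, which lies inside each longer match, had 4 matches in Isg15, 1 of them on the opposite strand at 128 to 121 bases before the start, and 1 match in Uba7, on the opposite strand at 27 to 20. It occurred in 21.3% of all promoters and had 0 matches in Ube2l6. A match describes these letters only.

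Isg15, the modifier itself, gave a bright signal in WT cells by its brighter probe, and in Ifnar1-/- cells it answered LPS but not IFNβ. In WT cells its further rise passed the test described below with every treatment but zVAD alone. With zVAD alone both WT arrays still lay above both untreated ones. All levels below are normalized log2 intensities of a probe, given for replicate 1 and then replicate 2, and levels of different probes are not comparable. By the brighter probe, untreated WT cells stood at 15.32 and 14.98, LPS-treated WT cells at 18.25 and 18.18, and IFNβ-treated WT cells at 18.47 and 18.44. With zVAD the WT values were 15.96 and 16.89, with LPS+zVAD 18.25 and 18.25, and with IFNβ+zVAD 18.44 and 18.51. The LPS+zVAD+Nec-1 value was 18.58 on replicate 1, where replicate 2 was dropped as an outlier spot, and the IFNβ+zVAD+Nec-1 values were 18.14 and 18.51. The stimulated WT arrays thus lay within a narrow band, with at most 28 of the retained probes brighter than Isg15 on any of them, close to the top of the scale, where the highest normalized value was 18.7. In Ifnar1-/- cells the same probe read 10.58 and 10.50 untreated, 10.70 and 10.40 with IFNβ, and 17.50 and 17.29 with LPS. It read 12.29 and 10.51 with zVAD, 18.47 and 18.51 with LPS+zVAD, and 11.87 and 10.96 with IFNβ+zVAD. The LPS+zVAD arrays of Ifnar1-/- cells sat among the stimulated WT arrays, with 3 and 4 brighter retained probes, while 8107 to 8850 retained probes were brighter than Isg15 on the untreated and IFNβ-treated ones. With LPS+zVAD+Nec-1 the 2 Ifnar1-/- arrays fell apart, at 16.81 and 12.86, and IFNβ+zVAD+Nec-1 gave 13.30 and 12.65.

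The second Isg15 probe, which lay further from the top of the scale, showed the same layout with wider steps. In WT cells it read 11.45 and 11.04 untreated, 16.30 and 15.87 with LPS, 16.48 and 16.47 with IFNβ, and 12.13 and 13.32 with zVAD. It read 16.79 and 16.93 with LPS+zVAD, 16.67 and 16.79 with IFNβ+zVAD, 16.45 and 16.56 with LPS+zVAD+Nec-1, and 16.87 and 16.60 with IFNβ+zVAD+Nec-1. No stimulated WT array overlapped the untreated pair, on which 6484 and 7363 retained probes were brighter than this one. Without the receptor it read 6.64 and 6.72 untreated, 14.18 and 14.28 with LPS, 7.10 and 6.91 with IFNβ, and 8.35 and 6.90 with zVAD. It read 15.92 and 15.59 with LPS+zVAD, 8.40 and 7.64 with IFNβ+zVAD, 13.69 and 9.12 with LPS+zVAD+Nec-1, and 9.25 and 8.95 with IFNβ+zVAD+Nec-1. By this probe the Ifnar1-/- LPS arrays lay below every WT array that had received LPS or IFNβ, and the Ifnar1-/- LPS+zVAD arrays lay beside the lowest of them. Ordering the 16 group means, 10 of 15 neighbouring pairs overlapped between arrays for the brighter probe and 8 of 15 for the other, and the means spanned 8.04 and 10.18 log2 units. The 2 probes followed each other over the 16 group means (r = 0.989).

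A probe for Gm9706, a predicted gene on another chromosome (chr17:46543886-46543945), shared a run of 35 bases with the brighter Isg15 probe and of 5 bases with the second. Over the arrays it followed both (r = 0.994 over 31 and 0.992 over 32 arrays, which share slides and scaling), and whether one RNA gave signal on both probes was not tested.

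**Figure D1:**
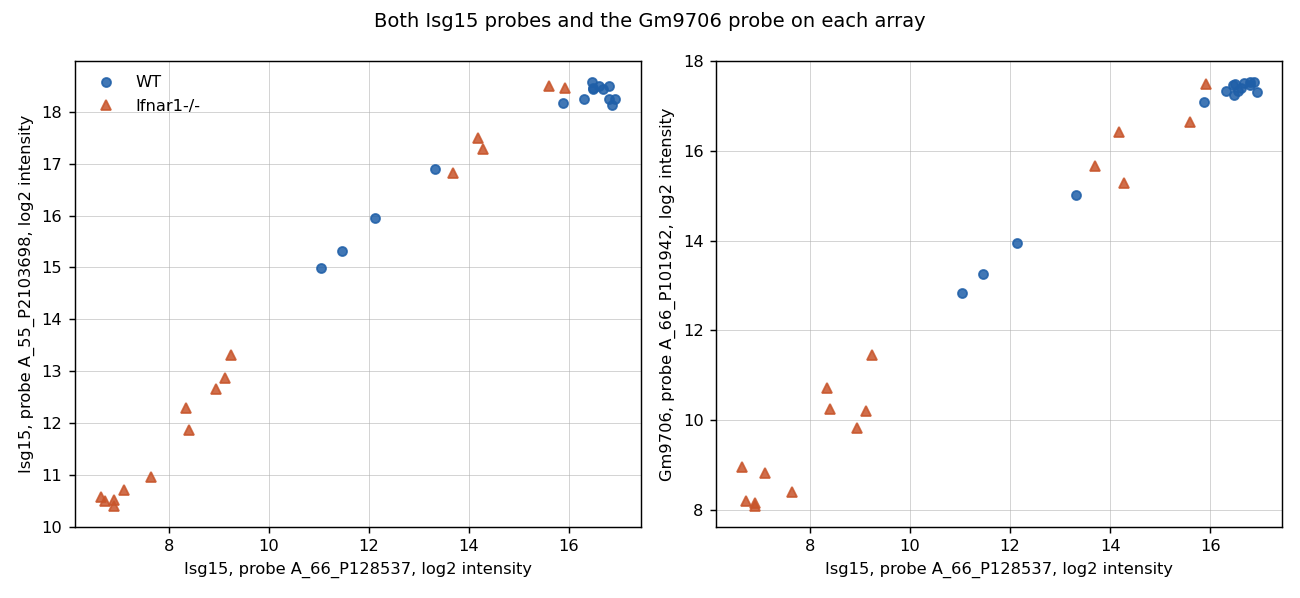
Each point is 1 array. Left, normalized log2 intensity of the brighter Isg15 probe (vertical) against the second Isg15 probe (horizontal); right, the Gm9706 probe against the second Isg15 probe. Blue circles are WT and orange triangles Ifnar1-/- arrays. In the left panel the brighter probe flattens towards 18.7 while the second probe still differs between arrays.

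Usp18, the ISG15 protease, showed the widest gap between the genotypes. Untreated WT cells read 12.11 and 12.44, LPS-treated ones 16.73 and 16.18, and IFNβ-treated ones 16.99 and 16.94. With zVAD it read 12.72 and 13.74, with LPS+zVAD 16.79 and 17.08, and with IFNβ+zVAD 16.99 and 16.95. LPS+zVAD+Nec-1 gave 16.90 and 16.85 and IFNβ+zVAD+Nec-1 gave 17.03 and 17.04. All WT groups other than untreated and zVAD thus formed a plateau. Without the receptor Usp18 lay close to background in every group: 4.80 and 5.51 untreated, 6.14 and 6.37 with LPS, 5.74 and 5.56 with IFNβ, and 5.23 and 6.13 with zVAD. It read 5.69 and 6.17 with LPS+zVAD, 5.41 and 5.31 with IFNβ+zVAD, 6.00 and 4.65 with LPS+zVAD+Nec-1, and 4.67 and 5.19 with IFNβ+zVAD+Nec-1. Neither array was well above background in the last group or with IFNβ+zVAD, and 1 of 2 was not with IFNβ or with LPS+zVAD+Nec-1. The lowest WT array (12.11) lay far above the highest Ifnar1-/- array (6.37), and the group means spanned 12.11 log2 units.

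Uba7, the activating enzyme, was bright in untreated cells and had the smallest WT rises of the 4 genes. WT cells read 14.12 and 14.58 untreated, 15.84 and 15.81 with LPS, and 16.57 and 16.67 with IFNβ. They read 13.84 and 14.35 with zVAD, 14.89 and 15.13 with LPS+zVAD, and 16.25 and 16.26 with IFNβ+zVAD. With Nec-1 they read 15.73 and 15.78 after LPS+zVAD and 16.17 and 16.23 after IFNβ+zVAD. The LPS+zVAD arrays sat below both the LPS arrays and the LPS+zVAD+Nec-1 arrays. Ifnar1-/- cells read 12.93 and 13.06 untreated, 13.12 and 13.02 with LPS, 12.90 and 13.00 with IFNβ, and 12.70 and 12.91 with zVAD. They read 12.13 and 12.29 with LPS+zVAD, 12.71 and 12.64 with IFNβ+zVAD, 12.67 and 12.04 with LPS+zVAD+Nec-1, and 12.12 and 12.20 with IFNβ+zVAD+Nec-1. No Ifnar1-/- array (highest 13.12) reached the lowest WT array (13.84), the group means spanned 4.46 log2 units, and 8 of 15 neighbouring groups overlapped.

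Ube2l6, the conjugating enzyme, combined both patterns. By its brighter probe WT cells read 12.48 and 12.41 untreated, 14.78 and 14.62 with LPS, and 15.61 and 15.81 with IFNβ. They read 12.74 and 13.52 with zVAD, 14.76 and 15.05 with LPS+zVAD, and 15.73 and 15.59 with IFNβ+zVAD. With Nec-1 they read 14.83 and 14.90 after LPS+zVAD and 15.83 and 15.74 after IFNβ+zVAD. By this probe all IFNβ-containing WT arrays lay above all LPS-containing ones, but by the second probe IFNβ+zVAD+Nec-1 replicate 1 (12.59) lay below 4 of the 6 LPS-containing arrays, the highest of them LPS+zVAD replicate 2 (13.30). Ifnar1-/- cells read 11.71 and 11.53 untreated, 13.24 and 13.44 with LPS, 11.74 and 11.84 with IFNβ, and 11.69 and 11.76 with zVAD. They read 13.54 and 13.64 with LPS+zVAD, 12.07 and 12.22 with IFNβ+zVAD, 12.78 and 11.15 with LPS+zVAD+Nec-1, and 11.41 and 11.39 with IFNβ+zVAD+Nec-1. The LPS and LPS+zVAD pairs of Ifnar1-/- cells thus stood above all other arrays of that genotype and above the untreated WT arrays. The second probe followed the first (r = 0.993 over 16 group means), with means from 8.11 to 13.42, and 12 of 15 neighbouring groups overlapped by it against 8 of 15 by the brighter one.

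**Figure D2:**
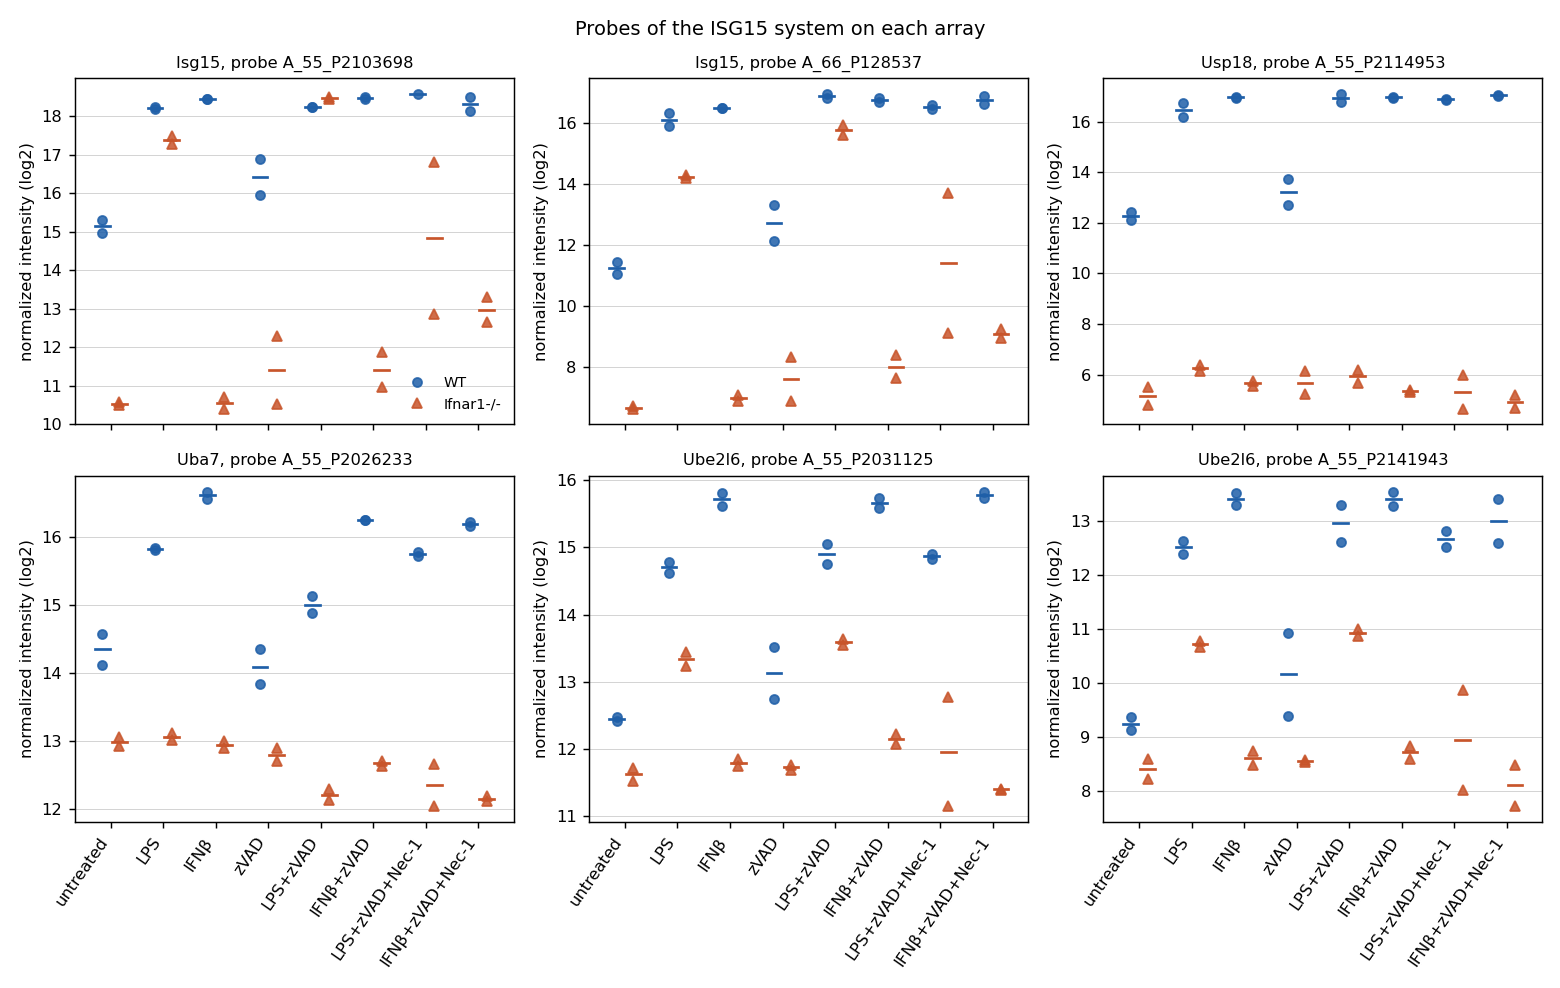
Normalized log2 intensity (vertical axis) of the 6 probes, 1 panel each, in the 8 treatments (horizontal axis). Each point is 1 array, blue circles WT and orange triangles Ifnar1-/-, and bars are group means. Isg15 and Ube2l6 rise with LPS and LPS+zVAD in Ifnar1-/- cells, whereas Usp18 stays at 6.37 or below and Uba7 at 13.12 or below there.

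The first comparison asked which stimuli raised the system in cells with the receptor. In WT cells every member rose with 6 of the 7 treatments, by 24 of 28 pairs of gene and treatment, and none passed the test with zVAD alone. The test was limma's moderated test with Benjamini-Hochberg adjustment over all 21462 probes, and for a gene with 2 probes the call is that of the brighter. With LPS, Usp18 rose by 4.18 log2 units (18.1-fold, SE 0.38, adjusted p = 9.82e-08) and Isg15 by 3.07 (8.38-fold, SE 0.75, adjusted p = 0.0028). The second Isg15 probe rose by 4.84 (28.7-fold, SE 0.81, adjusted p = 7.51e-05), so the size of the Isg15 change depended on the probe. LPS raised Ube2l6 by 2.26 (4.78-fold, adjusted p = 1.05e-05) and Uba7 by 1.47 (2.78-fold, adjusted p = 3.34e-06). Across all probes 17.2% were called higher with LPS and 14.1% with IFNβ, and the median change over the 6 probes was 3.16 and 3.73, against -0.067 and -0.18 over all probes. With IFNβ, Usp18 rose by 4.68 (25.7-fold, adjusted p = 1.31e-08), Isg15 by 3.30 (9.88-fold, adjusted p = 0.00193), Ube2l6 by 3.27 (9.64-fold, adjusted p = 1.04e-07) and Uba7 by 2.27 (4.82-fold, adjusted p = 1.31e-08).

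Adding zVAD to the stimulus left the WT calls in place. With LPS+zVAD, Isg15 was higher than untreated by 3.10 (second probe 5.61), Usp18 by 4.66 and Ube2l6 by 2.46. Uba7 rose least, by 0.66 (1.58-fold, adjusted p = 0.0052), and this call was lost without WT untreated replicate 1 (adjusted p = 0.113) or without WT LPS+zVAD replicate 2 (adjusted p = 0.063). Under 75th-percentile scaling the same Uba7 change was 1.46. Of all probes 19% were called higher with LPS+zVAD and 14.8% with IFNβ+zVAD. IFNβ+zVAD raised Isg15 by 3.32, Usp18 by 4.69, Uba7 by 1.90 and Ube2l6 by 3.21, and by the brighter probes the changes with Nec-1 present ran from 1.40 for Uba7 to 4.76 for Usp18. The background there was 16.4% with LPS+zVAD+Nec-1 and 13.5% with IFNβ+zVAD+Nec-1. With zVAD alone 0.00466% of probes (1 probe) were called higher, and 1237 probes had an unadjusted p under 0.05. The 95% interval of the zVAD change was 0.16 to 1.75 for Usp18 and -0.30 to 2.85 for Isg15.

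**Figure D3:**
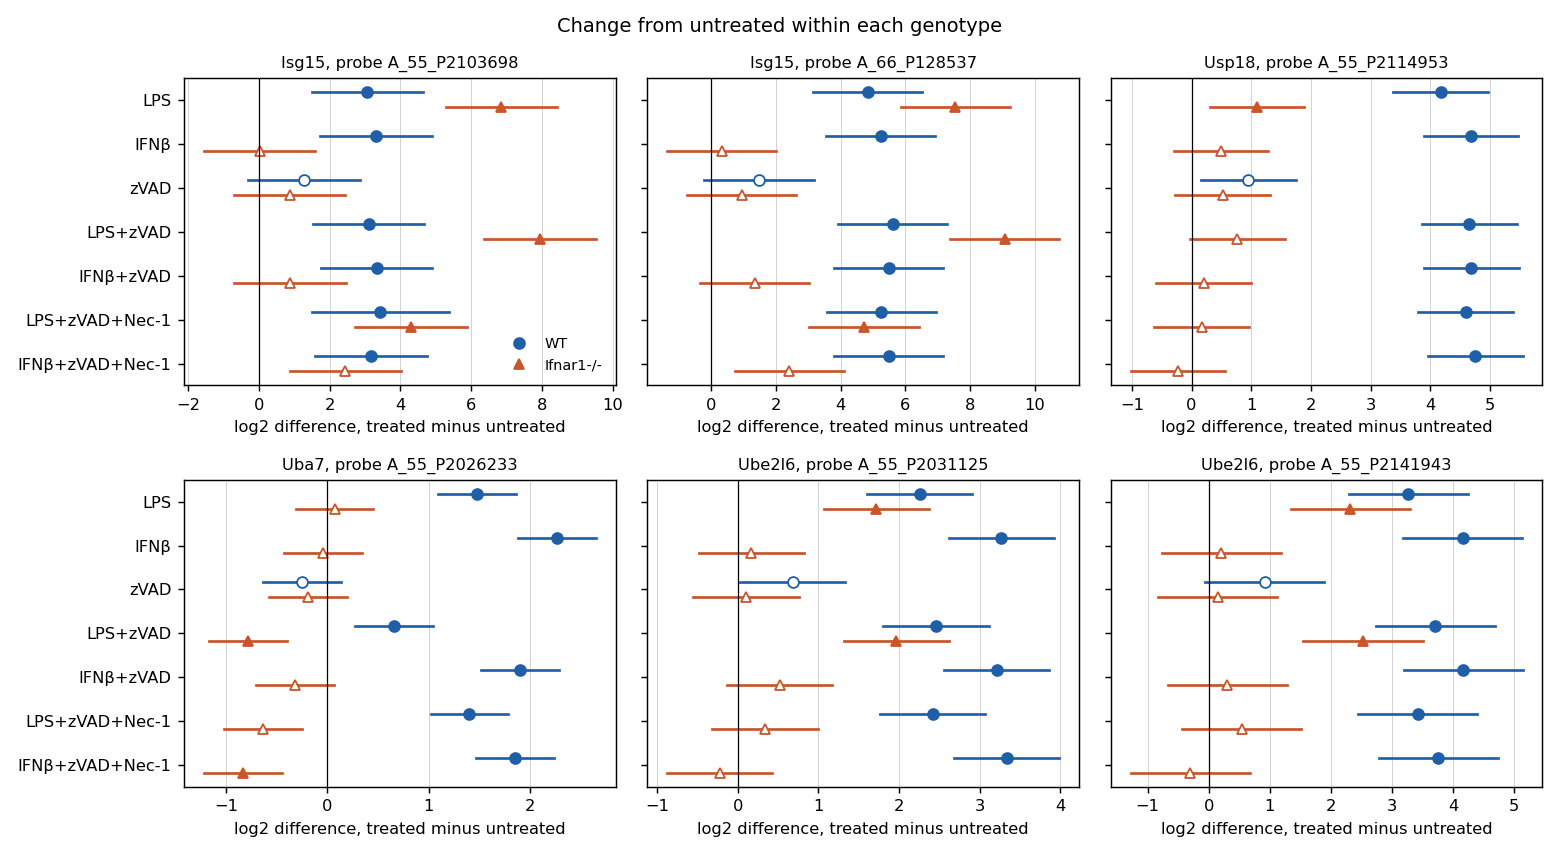
Log2 difference from untreated cells of the same genotype (horizontal axis) for the 6 probes, 1 panel each, in 7 treatments (vertical axis), with 95% confidence intervals. Blue circles are WT and orange triangles Ifnar1-/-, and filled symbols passed the test. WT changes lie to the right of 0 and are filled in 6 of 7 treatments. With zVAD alone none of the WT symbols is filled, though all but Uba7 lie to the right of 0. In Ifnar1-/- cells Isg15 reaches 6.86 with LPS and 7.95 with LPS+zVAD at the brighter probe, and 7.55 and 9.07 at the second.

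The second comparison asked what remained of the response without Ifnar1. In Ifnar1-/- cells 8 of 28 pairs passed the test, with 24.9% of all probes called in either direction with LPS and 28.2% with LPS+zVAD. Isg15 rose with LPS by 6.86 log2 units (116-fold, 95% interval 5.28 to 8.43, adjusted p = 1.21e-05), and by 7.55 at the second probe (187-fold). With LPS+zVAD it rose by 7.95 (247-fold, adjusted p = 1.26e-06) and by 9.07 at the second probe (539-fold). Ube2l6 rose by 1.72 with LPS (3.29-fold, adjusted p = 0.000486) and by 1.97 with LPS+zVAD (3.92-fold, adjusted p = 0.000128). Usp18 rose by 1.10 with LPS (2.14-fold, adjusted p = 0.0400), a change from close to background that was lost in 5 of 11 alternative settings and without either LPS array or untreated replicate 1, with values from 0.31 to 1.45 and adjusted p up to 0.478, and with LPS+zVAD its change was 0.77 (adjusted p = 0.145). Uba7 did not pass with LPS (0.071, adjusted p = 0.859) and fell by 0.78 with LPS+zVAD (adjusted p = 0.0034), which under 75th-percentile scaling became -0.55 (adjusted p = 0.112).

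IFNβ, zVAD and IFNβ+zVAD called no probe of the array in Ifnar1-/- cells by limma (0% each, with 312, 65 and 737 probes at an unadjusted p under 0.05). The 95% interval of the IFNβ change in Isg15 was -1.56 to 1.59. With the RipK1 inhibitor present few probes were called: 1.56% with LPS+zVAD+Nec-1 and 1.59% with IFNβ+zVAD+Nec-1. Isg15 was among them with LPS+zVAD+Nec-1, by 4.30 (adjusted p = 0.00563), a group whose 2 arrays were far apart. Left-out arrays moved this value between 2.32 and 6.28, and the call was lost without untreated replicate 1 (adjusted p = 0.0877) or 2 (adjusted p = 0.0693), and when only the 4 compared arrays were fitted (adjusted p = 0.994). With IFNβ+zVAD+Nec-1, Uba7 fell by 0.84 (adjusted p = 0.0194), which was lost when any of its 4 arrays was left out (adjusted p up to 0.216) and in 3 of 12 alternative settings that kept all arrays (adjusted p up to 0.22). Isg15 there changed by 2.44 (adjusted p = 0.143), which passed with the slide as a block (adjusted p = 0.0350) and without the wide pair (adjusted p = 0.00143). Uba7 with LPS+zVAD+Nec-1 changed by -0.64 (adjusted p = 0.0913), and this passed with the block (adjusted p = 0.0291).

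The third comparison set Ifnar1-/- against WT cells at each treatment, where slides and genotype coincide and fewer probes were well above background on Ifnar1-/- arrays. Members were lower in Ifnar1-/- cells in 29 of 32 pairs. With slides as a random block (correlation 0.398) the count was again 29, but such a block cannot separate slide from genotype here. Untreated Ifnar1-/- cells were lower for Usp18 (log2 difference -7.12, 139-fold, adjusted p = 1.26e-10), Isg15 (-4.61, 24.5-fold, adjusted p = 0.000483) and Uba7 (-1.36, 2.56-fold, adjusted p = 5.32e-05), against 3.5% of all probes called lower. The Usp18 size is imprecise, since its Ifnar1-/- signal was close to background, and ran from -7.21 to -5.46 over the alternative settings. Ube2l6 differed by -0.82 (adjusted p = 0.113, and 0.00373 without the wide pair). With zVAD alone, where 3.36% of probes were lower, all 4 genes were, from -1.29 for Uba7 to -7.56 for Usp18. The Ube2l6 call (-1.40, adjusted p = 0.00648) was lost without WT zVAD replicate 2 (-1.01, adjusted p = 0.145) or Ifnar1-/- zVAD replicate 2 (adjusted p = 0.0502). At its second probe (-1.60, adjusted p = 0.0355) the call was lost with the random block (adjusted p = 0.0596), without either Ifnar1-/- zVAD array (adjusted p = 0.146 and 0.169) and without WT zVAD replicate 2 (-0.83, adjusted p = 0.476).

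With IFNβ as the stimulus all 4 genes were lower in Ifnar1-/- cells. With IFNβ alone (15.9% of probes lower) the log2 difference was -7.90 for Isg15 (239-fold, adjusted p = 9.22e-08), -9.47 at its second probe, -11.31 for Usp18, -3.67 for Uba7 and -3.92 for Ube2l6 (15.1-fold). The median difference over the 6 probes was -6.34, against 0.21 over all probes. With IFNβ+zVAD (15.6% lower) Isg15 was 133-fold lower, and with IFNβ+zVAD+Nec-1 (15.8% lower) it was 40.7-fold lower, Uba7 16.5-fold lower and Ube2l6 20.9-fold lower. The fitted Usp18 difference was -11.61 with IFNβ+zVAD, and -12.30 to -10.24 over the alternative settings. With IFNβ+zVAD+Nec-1 it was -12.11, and -12.73 to -10.35 over the alternatives. Neither Ifnar1-/- array was well above background in these groups, so the sizes are not measured values. With LPS+zVAD+Nec-1 (14.8% lower) all 4 genes were lower, from -2.90 for Ube2l6 to -11.55 for Usp18, and Isg15 differed by -3.74. This Isg15 value rests on the wide pair and on a single WT array: without Ifnar1-/- replicate 1 it was -5.72 and without replicate 2 it was -1.76, and with only the compared arrays in the fit it did not pass (adjusted p = 0.226, and 0.0856 at the second probe, where the value was -5.10).

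Isg15 did not pass the genotype test after LPS or LPS+zVAD, and how it differs there from the other genes was not tested. With LPS, where 9.92% of probes were lower, Isg15 differed by -0.82 (95% interval -2.40 to 0.75, adjusted p = 0.466), while Usp18 (-10.20), Uba7 (-2.76) and Ube2l6 (-1.36, adjusted p = 0.00241) were lower. This Isg15 difference ran from -1.22 to -0.80 over 12 alternative settings and passed in 1 of them (adjusted p = 0.00338). The brighter probe was close to the top of the scale in these WT cells. At the second Isg15 probe the difference was -1.86 (95% interval -3.54 to -0.18, adjusted p = 0.0915). It passed in 4 of 10 alternative settings, among them the slide number as a block (adjusted p = 0.0470) and the fit without the wide pair (adjusted p = 0.000592). With LPS+zVAD, where 11.5% of probes were lower, Isg15 differed by 0.24 (95% interval -1.34 to 1.82, adjusted p = 0.836), which turned to -0.45 under 75th-percentile scaling. The second probe gave -1.10 (adjusted p = 0.304, and 0.0201 without the wide pair) and passed in 2 of 10 alternative settings. Usp18 (-11.01), Uba7 (-2.79) and Ube2l6 (-1.31, adjusted p = 0.00221) were lower in the same cells.

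The fourth comparison tested whether each change from untreated differed between the genotypes, which cancels slide effects that act alike on all arrays of a slide. It passed in 19 of 28 pairs. Uba7 and Usp18 responded less in Ifnar1-/- cells to all 6 treatments other than zVAD alone, with differences of -1.40 to -2.69 for Uba7. For Usp18 they were -3.08 to -4.43 in the 4 treatments where at least 1 Ifnar1-/- array was well above background, and the sizes fitted for the other 2 treatments, both with IFNβ and zVAD, are not measured values because neither array was. Beside these counts, 7.08% of all probes differed in their response to LPS, 19.3% to IFNβ, 16.6% to LPS+zVAD, 19.7% to IFNβ+zVAD, 18.3% to LPS+zVAD+Nec-1 and likewise 18.3% to IFNβ+zVAD+Nec-1. For zVAD alone limma called 0% of probes, with 205 at an unadjusted p under 0.05. Ube2l6 responded less to IFNβ (-3.10, adjusted p = 4.83e-05), to IFNβ with zVAD (-2.69), to LPS+zVAD+Nec-1 (-2.08) and to IFNβ with zVAD and Nec-1 (-3.56). The value for LPS+zVAD+Nec-1 rests on the wide pair, running from -1.26 to -2.90 when 1 array of it was left out, and did not pass with only the compared arrays (adjusted p = 0.102). For LPS its difference was -0.54 (95% interval -1.46 to 0.38, adjusted p = 0.6) and for LPS+zVAD -0.49 (adjusted p = 0.524).

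Isg15 was the exception in direction. Its rise with LPS+zVAD was larger in Ifnar1-/- cells, by 4.85 log2 units (adjusted p = 0.00392) and by 3.46 at the second probe (adjusted p = 0.0425, called in 6 of 10 alternative settings, and lost when any of its 8 arrays was left out, adjusted p up to 0.115). With LPS it was larger by 3.79 (adjusted p = 0.0358), a call lost when any of its 8 arrays was left out (adjusted p up to 0.111), and by 2.70 at the second probe (adjusted p = 0.182). Without the wide pair these 2 values passed (adjusted p = 0.000277 and 0.00194). Untreated Isg15 differed between the genotypes by -4.61, and the brighter probe in stimulated WT cells was close to the top of the scale, which limits how far a WT rise could be read. With IFNβ its rise was smaller in Ifnar1-/- cells (log2 difference -3.29, adjusted p = 0.036, again lost when any of its 8 arrays was left out, adjusted p up to 0.101) as it was at the second probe (-4.91, adjusted p = 0.00462). With IFNβ+zVAD the brighter probe gave -2.45 (adjusted p = 0.118, and 0.0438 with the block) and the second -4.14 (adjusted p = 0.0142), which was lost without WT untreated replicate 2 (adjusted p = 0.0520) or Ifnar1-/- IFNβ+zVAD replicate 2 (adjusted p = 0.0625). With IFNβ+zVAD+Nec-1 the second probe gave -3.07 (adjusted p = 0.0676), which passed with the block (adjusted p = 0.0290) and without the wide pair (adjusted p = 0.00022). Without the wide pair the brighter probe passed with IFNβ+zVAD (adjusted p = 0.00406). Its difference of -3.29 with IFNβ alone passed in 9 of 12 alternative settings.

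**Figure D4:**
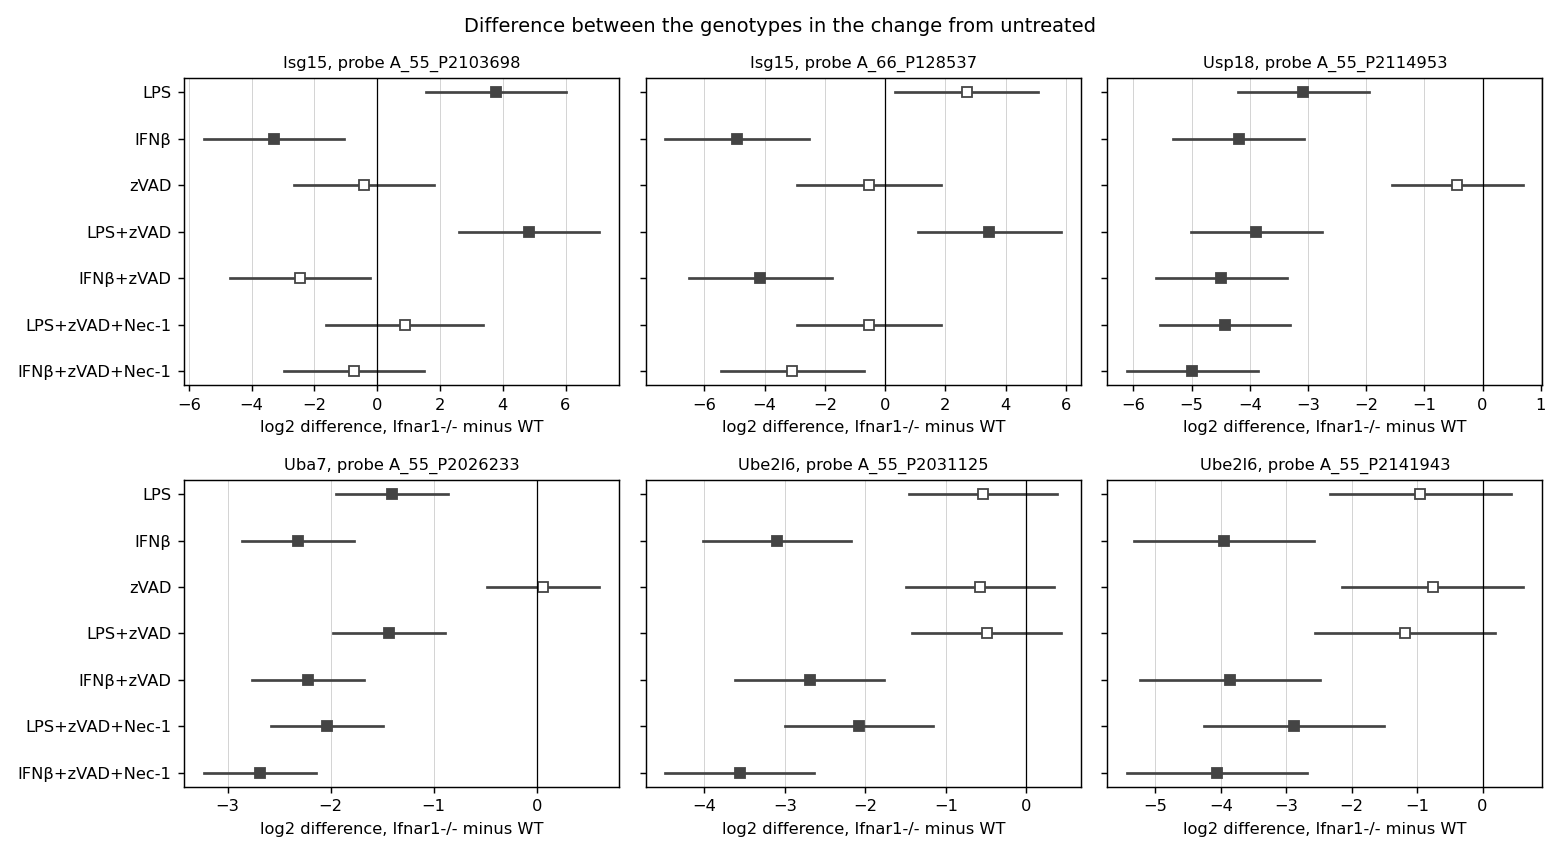
Change from untreated in Ifnar1-/- cells minus the change in WT cells (horizontal axis, log2 units, with 95% confidence intervals) for the 6 probes, 1 panel each, in 7 treatments (vertical axis). Filled squares passed the test. Isg15 lies right of 0 for LPS and LPS+zVAD, whereas Usp18 and Uba7 are filled squares left of 0 for all treatments but zVAD alone, where neither passed.

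The fifth comparison asked what caspase inhibition added to a stimulus, and 2 of 16 pairs passed, both of Uba7 with LPS. LPS+zVAD was lower than LPS for Uba7 in WT cells (log2 difference -0.82, 1.76-fold, adjusted p = 0.00154) and in Ifnar1-/- cells (-0.85, 1.80-fold, adjusted p = 0.00552). In each genotype both LPS+zVAD arrays lay below both LPS arrays. Under 75th-percentile scaling the WT difference was -0.57 (adjusted p = 0.0826), and the Ifnar1-/- call was lost without LPS replicate 1 (adjusted p = 0.0686) or LPS+zVAD replicate 1 (adjusted p = 0.0897). In WT cells 35.6% of all probes were called in either direction, so that a call there was common, and in Ifnar1-/- cells 8.62%. With IFNβ as the stimulus zVAD changed Uba7 by -0.36 in WT and -0.27 in Ifnar1-/- cells, where 0.00932% and 0.00466% of probes passed. Isg15 in Ifnar1-/- cells was 17.50 and 17.29 with LPS and 18.47 and 18.51 with LPS+zVAD, a difference of 1.09 (adjusted p = 0.457). The second probe gave 1.53 (adjusted p = 0.286, and 0.00884 without the wide pair).

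The sixth comparison asked what Nec-1 added to a stimulus with zVAD, and 3 of 16 pairs passed. In WT cells Nec-1 with LPS+zVAD raised Uba7 by 0.75 (1.68-fold, adjusted p = 0.00413), where 29.3% of all probes were called, and under 75th-percentile scaling by 0.39 (adjusted p = 0.277). In Ifnar1-/- cells with LPS+zVAD, where 18.8% were called, Isg15 was lower (log2 difference -3.65, adjusted p = 0.00248) and so was Ube2l6 (-1.63, adjusted p = 0.00134). Both rest on the wide pair: the difference within replicate 1 was -1.65 for Isg15 and -0.77 for Ube2l6, and within replicate 2 it was -5.65 and -2.49. With only the 4 compared arrays in the fit neither passed (adjusted p = 0.25 for Isg15 and 0.246 for Ube2l6), and without both wide arrays there is no value. Nec-1 with IFNβ+zVAD called 0% of probes in WT cells by limma (800 at an unadjusted p under 0.05) and 1.41% in Ifnar1-/- cells. Isg15 in those Ifnar1-/- cells differed by 1.56 (adjusted p = 0.522, and 0.0402 without the wide pair) and Ube2l6 by -0.74 (adjusted p = 0.395, and 0.0221 without it).

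The last comparison set IFNβ against LPS within a genotype, at doses that are not matched, and 4 of 8 pairs passed. In WT cells, where 21% of probes were called in either direction, IFNβ gave higher Uba7 by 0.79 (1.73-fold, adjusted p = 0.00388) and higher Ube2l6 by 1.01 (2.02-fold, adjusted p = 0.0251). The Ube2l6 call was lost when any of its 4 arrays was left out (adjusted p up to 0.130) and under 75th-percentile scaling. The WT difference was 0.24 for Isg15 (95% interval -1.34 to 1.82) and 0.51 for Usp18 (95% interval -0.29 to 1.30), neither past the threshold. In Ifnar1-/- cells, where 24.5% were called, IFNβ gave lower Isg15 (log2 difference -6.84, 115-fold, adjusted p = 1.02e-05) and lower Ube2l6 (-1.55, 2.92-fold, adjusted p = 0.00114).

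Other genes of the pathway came from 3 lists: partners of ISG15, the receptor with ISGF3, and other ubiquitin-like systems. Of 12 ISG15 partners (ligases, conjugating enzymes, proteases and receptors) 11 were retained. With LPS 6 of them were higher and 2 lower in WT cells (median 1.02), with IFNβ 4 were higher and 3 lower (median 0.16), and in Ifnar1-/- cells 3 were higher and 1 lower with LPS (median 0.31) and 0 passed with IFNβ (median -0.031). Over all probes the medians of these 4 comparisons were -0.067, -0.18, -0.040 and -0.0065. With LPS 17.2% of all probes rose and 24.4% fell in WT cells, and with IFNβ 14.1% rose and 21.7% fell. In Ifnar1-/- cells 11.4% rose and 13.5% fell with LPS, and 0% were called with IFNβ. These shares are the background for all 3 lists, so a count of 0 with IFNβ in Ifnar1-/- cells is that of the whole array. Herc6, the main ISG15 ligase of mouse cells, rose with LPS in both genotypes: in WT cells it rose by 3.95 with LPS (adjusted p = 1.44e-06) and by 5.03 with IFNβ. Without the receptor Herc6 rose by 2.53 with LPS (adjusted p = 0.000472) and by 3.46 with LPS+zVAD (adjusted p = 2.55e-05), and its IFNβ change was -0.035. Arih1, another ligase reported for ISG15, rose by 1.19 with LPS (adjusted p = 0.000306) and by 1.46 with IFNβ in WT cells, and with LPS in Ifnar1-/- cells it changed by 0.56 (adjusted p = 0.0832). Trim25, a ubiquitin and ISG15 ligase, rose by 1.02 (adjusted p = 0.00106) and 0.78 (adjusted p = 0.0101) in WT cells, and changed by 0.31 with LPS in Ifnar1-/- cells (adjusted p = 0.375). Itgal, a subunit of the surface receptor for free ISG15, rose with LPS in both genotypes, by 1.09 in WT (adjusted p = 0.00126) and 1.89 in Ifnar1-/- cells (adjusted p = 3.35e-05), and its IFNβ changes were -0.15 and -0.12.

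All 7 genes of the receptor and ISGF3 list were retained, and 2 rose with LPS and 3 with IFNβ in WT cells, while 0 passed in Ifnar1-/- cells with either. Without stimulation 3 of the 7 were lower in Ifnar1-/- cells (median difference -1.25), beside 3.5% of all probes, and after LPS 5 were lower (median -2.05), beside 9.92%. The 7 include Ifnar1 itself, the gene deleted in these cells, so the genotype can set part of these counts and medians. The median after LPS is the difference of Ifnar1 (mean 12.43 in Ifnar1-/- and 14.48 in WT cells). Stat2, the ISGF3 subunit specific to interferon signalling, rose by 1.61 with LPS (adjusted p = 0.00112) and by 2.99 with IFNβ (adjusted p = 1.98e-06) in WT cells, and was lower in untreated Ifnar1-/- than in untreated WT cells (-2.28, adjusted p = 0.00027). Irf9, its DNA-binding subunit, was lower there too (-2.86, adjusted p = 1.12e-07), and its WT changes of 0.28 with LPS and 0.61 with IFNβ did not pass. The list of 21 genes of other ubiquitin-like systems, 20 of them retained, moved in both directions: 9 rose and 3 fell with LPS in WT cells (median 0.41), 6 rose and 6 fell with IFNβ (median 0.22), and 6 rose and 1 fell with LPS in Ifnar1-/- cells (median 0.21). Uba1, the main ubiquitin-activating enzyme, rose by 1.05 with LPS in WT cells (adjusted p = 7.33e-05) and by 0.72 in Ifnar1-/- cells (adjusted p = 0.00497). Ube2l3, the closest relative of Ube2l6, rose by 0.58 with LPS in WT cells (adjusted p = 0.0419) and changed by -0.05 in Ifnar1-/- cells.

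The members' patterns over the 16 group means resembled each other unevenly. Usp18 and Uba7 correlated at r = 0.963, Usp18 and Ube2l6 at 0.892, and Uba7 and Ube2l6 at 0.894, whereas the brighter Isg15 probe correlated at 0.873 with Ube2l6, 0.757 with Usp18 and 0.678 with Uba7. The 16 means share slides and scaling, and these values are descriptions. Among 16030 other genes, by their brightest probes, the genes with the pattern most like Isg15 were Gm9706 (r = 0.997, by a probe that shares 35 bases with the brighter Isg15 probe), Aoah (0.972), which encodes an enzyme that degrades LPS, and the chemokine gene Ccl5 (0.968). Those most like Usp18 were Ifi47, Oas1g and Tgtp2 (0.997 each), which encode an interferon-inducible GTPase, an oligoadenylate synthetase and another such GTPase. Those most like Uba7 were Tcstv3 (0.991), the complement gene C2 (0.989) and Stard3 (0.988), and those most like Ube2l6 were Rbbp8 (0.988), Fam26f (0.987) and Tapbp (0.986), the gene of tapasin in peptide loading of MHC class I.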

How the data were processed

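RNA from 32 BMDM samples was hybridized to 1-colour Agilent SurePrint G3 Mouse 8x60K arrays (design build mm9). The deposited intensity per spot was made by the authors with Feature Extraction 11.5.1.1, which subtracted local background and detrended it. The deposited series table of log2 values, whose exact steps are not stated by the authors, served as an alternative. It held a value for the second Isg15 probe on 11 of 32 arrays.

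Outlier spots were dropped, log2 intensities were quantile-normalized, and 21462 probes with a symbol, well above background on at least 50% of arrays, entered 1 limma fit (limma 3.58.1, R 4.3.3) of the 16 groups with a trended prior. P-values were Benjamini-Hochberg adjusted over all probes per comparison, and the threshold was 0.05. The script was tested on simulated data. Lists were described by the brightest probe per gene, and the genes named from them were fixed by rule. The genes and lists were chosen with earlier results of these data known.

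Same-numbered arrays shared a slide, and their deviations from group means correlated at r = 0.318 to 0.662 in WT and 0.170 to 0.570 in Ifnar1-/- cells over 28 pairs of groups each, so a fit with the number as a block was an alternative. The others were 75th-percentile scaling, normexp background correction, other filters, slides as a random block, only the compared arrays, and leaving out arrays. Doses other than those in the labels were not used here. Some genes of the lists are not reported here by name.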

Additional observations from a re-analysis of the deposited data

Results flagged for a closer look

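The change from untreated differed between Ifnar1-/- and WT cells for 19 pairs of gene and treatment by limma's test of the difference itself, given here as Ifnar1-/- minus WT on the log2 scale. For Isg15, by the brighter probe, the values were 3.79 with LPS, -3.29 with IFNβ and 4.85 with LPS+zVAD. For Usp18 they were -3.08 with LPS, -4.19 with IFNβ, -3.89 with LPS+zVAD, -4.49 with IFNβ+zVAD, -4.43 with LPS+zVAD+Nec-1 and -4.98 with IFNβ+zVAD+Nec-1. The fourth and the last of these are fitted values for Ifnar1-/- groups in which neither array was well above background, and 1 of 2 arrays was not with IFNβ or with LPS+zVAD+Nec-1, so they are not exact sizes. For Uba7 they were -1.40, -2.31, -1.44, -2.22, -2.04 and -2.69 for the same 6 treatments in that order. For Ube2l6 they were -3.10 with IFNβ, -2.69 with IFNβ+zVAD, -2.08 with LPS+zVAD+Nec-1 and -3.56 with IFNβ+zVAD+Nec-1. Isg15 with LPS and LPS+zVAD was the only member called with a larger rise in Ifnar1-/- cells. Its brighter probe was near the top of the scale in stimulated WT cells. Its calls with LPS and with IFNβ did not hold when any compared array was left out. The second Isg15 probe did not pass with LPS (2.70, adjusted p = 0.182). The Ube2l6 value with LPS+zVAD+Nec-1 rests on the wide pair and did not pass with only the compared arrays. Of all probes, 7.08% (LPS) to 19.7% (IFNβ+zVAD) differed in these 6 treatments. No group had enough arrays to look for single outlying samples.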

How the results depend on the processing

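Of 234 member probe results, 130 passed the threshold, 109 of them under every alternative that kept all arrays, and 105 also with any array left out. The changes of sign given below are among 162 results, called in any setting with all arrays or kept from chosen comparisons though uncalled. The remaining 72 passed in no such setting, and 10 of them changed sign in an alternative that kept all arrays. Under 75th-percentile scaling the changes called in Ifnar1-/- cells numbered 5 (8 as reported) and those of added zVAD 1 (2 as reported), and this scaling moved the median of all probes by over 0.1 log2 units in several comparisons (WT LPS+zVAD from -0.16 to 0.11). With arrays left out, the calls ran from 5 to 10 in Ifnar1-/- cells, from 3 to 6 for added Nec-1 (3 as reported) and from 1 to 2 for added zVAD, and a group left with 1 array was assumed to vary like the others. Without the wide pair, added Nec-1 gave 3 calls over the 12 remaining pairs, against 1 over the same pairs as reported. The fit with the replicate block gave 10 calls in Ifnar1-/- cells and 20 differences between genotypes (19 as reported), and changed no call beyond the 5 printed beside their results. These values changed sign: Isg15 with IFNβ in Ifnar1-/- cells (-0.065 with normexp, -0.063 in the authors' table, and -0.13 to 0.16 with arrays left out) and Isg15 between genotypes with LPS+zVAD (-0.45 with 75th-percentile scaling). With arrays left out, Isg15 with zVAD in Ifnar1-/- cells ran from -0.022 to 1.75, Uba7 with zVAD in WT cells from -0.51 to 0.0016, and Uba7 with IFNβ in Ifnar1-/- cells from -0.11 to 0.017. None of these passed the threshold as reported. The cause was not tested. Usp18 gave no value among probes above background on all 32 arrays, and its Ifnar1-/- levels, close to background, are the least precise.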
